A study of Drosophila melanogaster with 4 samples.

Results

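The Tweedle, Lcp, Ccp84 and Edg genes of Drosophila melanogaster encode proteins of the cuticle. Members were the genes whose platform symbol starts with Twdl, Lcp, Ccp84 or Edg followed by a digit, on a probe set that carries a single gene symbol, with the brightest probe set standing for a gene. The rule found 37 genes of 11982 named genes on the array, 24 Twdl, 7 Lcp, 3 Ccp84 and 3 Edg genes, on 38 probe sets. RNA came from eye discs dissected from pupae about 40 h after pupariation and raised at 29 °C. Controls carried GMR-Gal4, which makes the yeast activator Gal4 in differentiating eye cells, and the others came from GMR-Gal4 crossed to UAS-Yki, which overexpresses Yorkie (Yki), the growth-promoting coactivator that Hippo signalling restrains. Both groups thus carry the driver and were grown at the same temperature. Each group had 2 arrays, which the titles call biological replicates, and the number of animals pooled per sample is not stated.

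The cuticle is secreted by the epidermis at each moult as chitin fibres bound by proteins, and different sets of these proteins are made for the larval, pupal and adult coats. Steroid pulses of ecdysone time each round, and many cuticle genes are switched on only as a pulse declines. In the eye, the cone and pigment cells also secrete a specialised adult cuticle, the corneal lens. The Lcp genes (larval cuticle protein) and Ccp84 genes (a cuticle gene cluster) belong to the large family with a Rebers-Riddiford chitin-binding region. The Edg genes (ecdysone-dependent gene) were found in imaginal discs that had been given a pulse of ecdysone, and their products are named pupal cuticle proteins. The Tweedle proteins form a separate insect family, known from mutants with a short, stout body shape.

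The brightest Lcp and Edg probe sets had lower intensities in Yki discs, while the brightest Tweedle probe sets did not separate the groups. Lcp65Ad was 12.3-fold lower with Yki by the group means, Edg84A 21.0-fold lower and Edg78E 4.89-fold lower. TwdlT and TwdlE stayed near the top of the intensity scale on all arrays. Ccp84Ac, TwdlG, TwdlH, TwdlK and TwdlO had higher intensities on both Yki arrays than on both control arrays. Of these, all but TwdlG had control intensities below 50. None of the 37 genes passed the limma test at an adjusted p of 0.05 over all 18769 non-control probe sets, of which 0.016% passed. The lowest adjusted p was 0.114, for Lcp65Ad. With an unadjusted limma p under 0.05 there were 8 members lower with Yki (21.6%, where 6.31% of all probe sets were) and 4 higher (10.8%, where 6.86% were). An exact permutation test of 2 arrays against 2 cannot give a two-sided p below 0.333 for any gene.

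**Figure D1:**
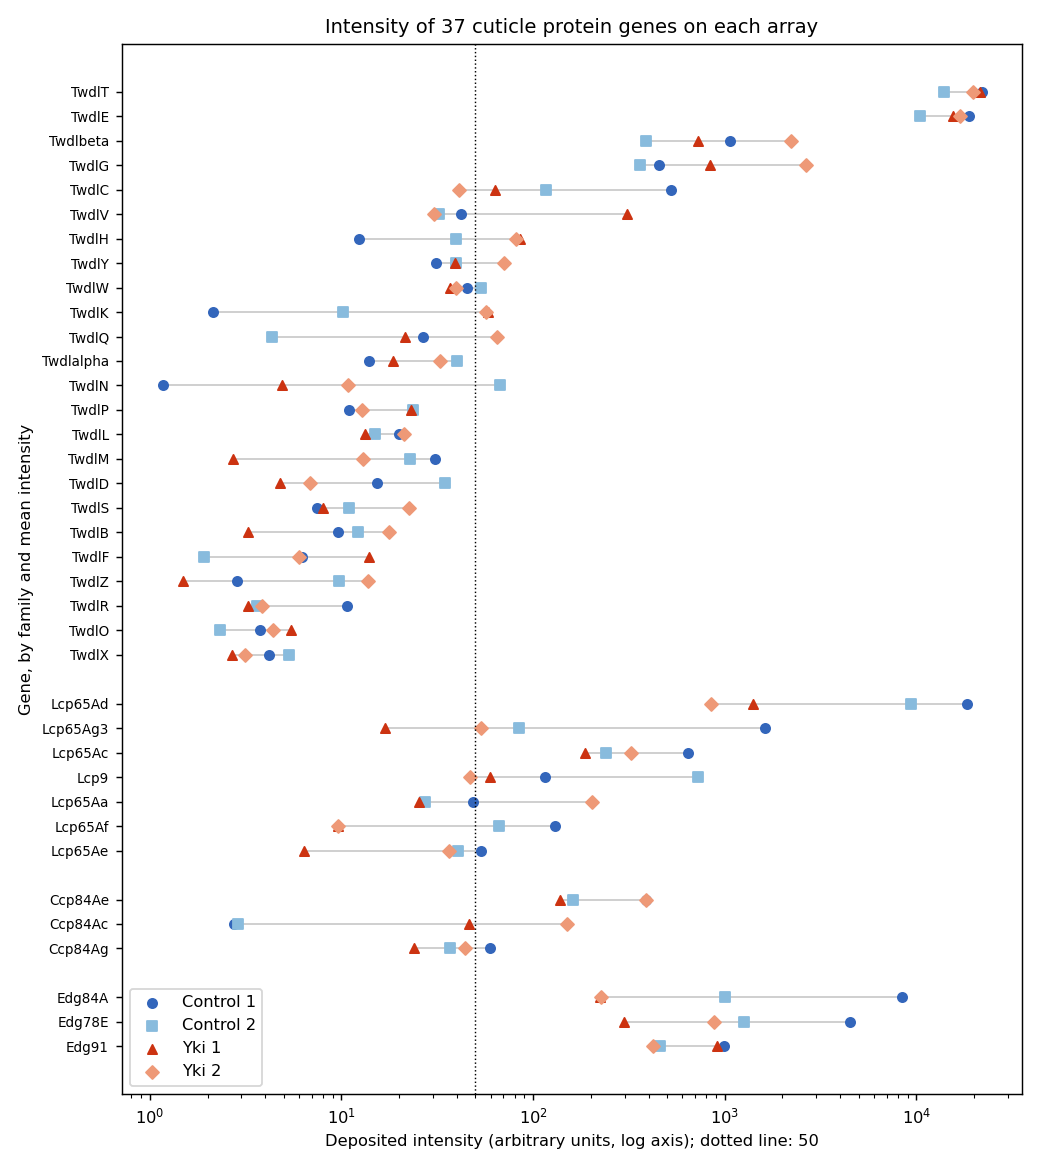
Deposited intensity on each of the 4 arrays (log axis) for the 37 genes, by family and by mean intensity, with a dotted line at 50. Lcp65Ad, Edg84A and Lcp65Af have both Yki arrays far to the left of both control arrays, TwdlT and TwdlE have all 4 arrays close together, and most Tweedle genes lie below the line.

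The groups did not overlap for 12 members that were lower with Yki (32.4%, where 21.1% of all probe sets were) and for 5 that were higher (13.5%, where 24.3% were). At least a 2-fold gap in all 4 pairs of a Yki with a control array was seen for 3 members in the lower direction, Lcp65Ad, Lcp65Af and Edg84A (1.69% of all probe sets), and for 2 in the higher direction, Ccp84Ac and TwdlK (1.37% of all probe sets). A fold of this kind, and every log2 difference here, is on the log2(intensity + 16) scale, which understates changes of dim probe sets. Of the members, 19 had a mean below 50 over the 4 arrays and are called dim, 17 of them Tweedle genes. No detection call was used, so a dim gene cannot be called present or absent. Intensities of different probe sets are not on a common scale of RNA amount, so levels are compared between arrays and not between genes.

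Replicate arrays differed more for these genes than for most of the array. The median absolute log2 difference between the 2 control arrays was 0.58 over the 37 members and 0.29 over all probe sets, and between the 2 Yki arrays it was 0.60 and 0.34. Control replicate 1 was above control replicate 2 for 23 of the 37 members (62.2%, where 41.5% of all probe sets were), for 6 of 7 Lcp genes and for 3 of 3 Edg genes.

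The Edg genes are 3 separate genes named for the same hormone response. Edg84A, a pupal cuticle protein gene with a Rebers-Riddiford region, had intensities of 8386 and 998 in control discs and 223 and 225 in Yki discs. Both Yki arrays lay below both control arrays and almost coincided, whereas the control arrays spanned 8.40-fold. Its log2 difference was -3.61 (SE 0.99, limma adjusted p 0.273), with -5.14 within replicate 1 and -2.08 within replicate 2. Without control replicate 1 the difference was -2.08, and without control replicate 2 it was -5.13.

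Edg78E, another pupal cuticle protein gene of the same family, had 4477 and 1267 in control discs and 297 and 877 in Yki discs. The groups did not overlap, but the lower control array and the higher Yki array were close. The log2 difference was -2.18 (SE 0.77, limma adjusted p 0.348), with -3.84 and -0.52 within replicates 1 and 2. It was -1.28 without control replicate 1 and -1.43 without Yki replicate 1. Edg91, the remaining Edg gene, had 995 and 459 in control discs and 907 and 422 in Yki discs, so its groups overlapped almost completely. Its log2 difference of -0.12 (SE 0.53) had an adjusted p of 0.953.

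Lcp65Ad had nearly the same difference in both same-numbered pairs of arrays. It measured 18289 and 9410.4 in control discs and 1399.7 and 843 in Yki discs, and even the lower control value was 6.72-fold above the higher Yki value. Its log2 difference of -3.57 (SE 0.44) was -3.69 within replicate 1 and -3.46 within replicate 2. The adjusted p ran from 5.07e-15 to 0.496 over 14 alternative settings, and the gene passed 0.05 in 3 of them. These were the fit with the replicate block (0.0426), the fit of probe sets with a mean of at least 100 (0.0457) and the fit with array medians subtracted. The last gave the lowest value. It used the same SD of 0.42 for every probe set, so its p does not reflect the spread of this gene, and 874 probe sets passed in it.

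Lcp65Af, from the same gene cluster, had 130.3 and 66.7 in control discs and 9.57 and 9.55 in Yki discs. The Yki values lay among the dimmest probe sets of the array, below the 16 added before taking logs, and clear of both control values. The log2 difference was -2.11 (SE 0.34, limma adjusted p 0.145). Lcp65Ag3 had 1631 and 84.1 in control discs against 16.8 and 53.6 in Yki discs. Here the groups separated only narrowly, because control replicate 2 lay close to Yki replicate 2. Its log2 difference of -3.09 (SE 1.34, adjusted p 0.417) became -1.07 without control replicate 1 and -5.11 without control replicate 2.

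Lcp9, which lies apart from the 65A cluster, was the larval gene with the opposite order of control arrays. It had 115 and 729 in control discs and 59.8 and 46.9 in Yki discs, with a log2 difference of -2.18 (SE 0.82, limma adjusted p 0.369). Both Yki arrays were below both control arrays, and without control replicate 2 the difference was -0.93.

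The other 3 larval genes showed smaller or mixed differences. Lcp65Ac had 643 and 239.96 in control discs and 187 and 325 in Yki discs, so the groups overlapped, and its log2 difference of -0.64 was 0.04 without control replicate 1. Lcp65Ae, which was dim, had 53.7 and 40.3 in control discs and 6.41 and 36.5 in Yki discs, with both Yki arrays below both controls by a narrow margin. Lcp65Aa, at the other end of the cluster from Lcp65Ag3, had 48.4 and 27.1 in control discs and 25.3 and 203 in Yki discs, and its log2 difference of 0.85 came from a single Yki array. A second probe set of Lcp65Aa had 26.8 and 32.9 in control discs and 47.2 and 92.4 in Yki discs, with a log2 difference of 0.86, and there both Yki arrays were above both controls. The limma adjusted p of the brightest probe sets was 0.678, 0.494 and 0.719 for Lcp65Ac, Lcp65Ae and Lcp65Aa.

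The 65A cluster on chromosome arm 3L held 10 Lcp65A genes in the RefSeq order, 6 with a probe set of their own. The 5 of these from Lcp65Ag3 to Lcp65Ac had a fitted difference below 0 with all arrays, and Lcp65Aa, at the end of the row, was not. A probe set assigned to both Lcp65Ag1 and Lcp65Ag2, which the membership rule leaves out and which was looked up after the other values were seen, stands between Lcp65Ag3 and Lcp65Af. It had 18357 and 5039.8 in control discs and 320.2 and 478 in Yki discs, a log2 difference of -4.56 (SE 0.65, limma adjusted p 0.14). Both Yki arrays lay at least 10.5-fold below both control arrays on this probe set. Signal from near-identical cluster neighbours cannot be told apart on such probe sets, and Lcp65Ab1 and Lcp65Ab2 were not analysed here.

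**Figure D2:**
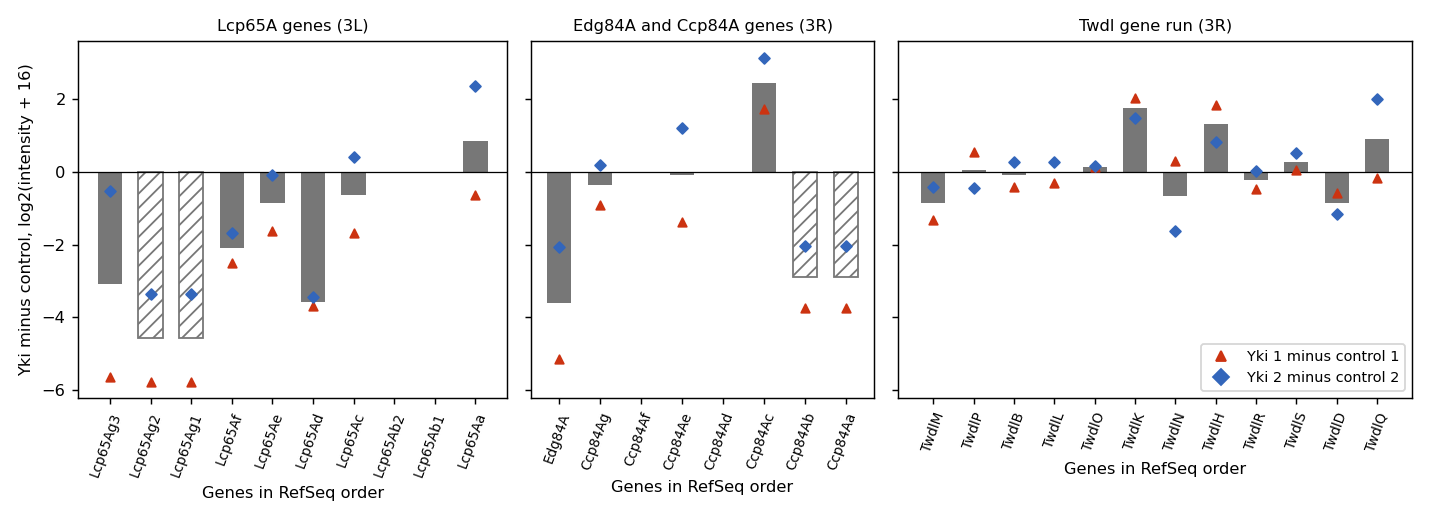
Log2 difference between Yki and control discs for the Lcp65A genes, the Edg84A and Ccp84A genes, and the longest run of neighbouring Tweedle genes, each in RefSeq gene order. Bars are the fitted differences (hatched where a probe set is shared by neighbouring genes), triangles and diamonds are the same-numbered pairs of arrays, and genes without a bar were not analysed here. Bars of the Lcp65A row point down except that of Lcp65Aa, the 84A row has bars in both directions, and those of the Tweedle row lie between -0.87 and 1.76.

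Edg84A lies next to the Ccp84A genes on chromosome arm 3R, and this row held differences in both directions. Ccp84Ac had 2.76 and 2.88 in control discs and 46.2 and 149.9 in Yki discs. The control values were at the bottom of the intensity scale and both Yki values stood clear of them, with a log2 difference of 2.43 (SE 0.50, limma adjusted p 0.186). With 64 in place of 16 added before the log, the difference was 1.20.

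Its neighbours differed from it. Ccp84Ae had 388 and 161 in control discs and 139 and 388 in Yki discs, where each group held a high and a low array (log2 difference -0.10, SE 0.62, limma adjusted p 0.971). Ccp84Ag, which was dim, had 59.3 and 36.9 in control discs and 23.8 and 44.1 in Yki discs, and the groups overlapped (log2 difference -0.37, adjusted p 0.703). A probe set assigned to both Ccp84Aa and Ccp84Ab, outside the rule and also looked up after the other values were seen, had 554 and 275 in control discs and 26.5 and 54.3 in Yki discs. There both Yki arrays were well below both control arrays (log2 difference -2.90, SE 0.44, adjusted p 0.142), opposite to the adjacent Ccp84Ac. Ccp84Ad and Ccp84Af were not analysed here.

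The Tweedle family held both very bright probe sets and most of the dim ones. TwdlT measured 21853 and 13857 in control discs and 21379.5 and 19779 in Yki discs. TwdlE measured 18878 and 10420.0 in control discs and 15510.1 and 16870.5 in Yki discs. For both genes the groups overlapped, with control replicate 2 lowest and control replicate 1 highest, and log2 differences were 0.24 (SE 0.30) and 0.21 (SE 0.35). Their limma adjusted p was 0.799 and 0.861. Intensities this close to the highest on the array can understate differences.

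TwdlG and TwdlC went opposite ways. TwdlG had 456 and 362 in control discs and 838 and 2651 in Yki discs, with both Yki arrays above both controls and a wide gap between the Yki arrays. Its log2 difference was 1.84 (SE 0.57, limma adjusted p 0.304), or 1.02 without Yki replicate 2. TwdlC had 521 and 117 in control discs and 63.1 and 40.9 in Yki discs, so both Yki arrays were below both controls. Its log2 difference was -1.99 (SE 0.69, adjusted p 0.341), with -2.76 and -1.23 within replicates 1 and 2 and -0.99 without control replicate 1.

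TwdlH and TwdlK, from the run of neighbouring Tweedle genes on 3R, were low in control discs and higher on both Yki arrays. TwdlH had 12.3 and 39.7 in control discs and 85.2 and 81.3 in Yki discs, a log2 difference of 1.32 (SE 0.38, limma adjusted p 0.282). TwdlK, whose mean was dim, had 2.14 and 10.1 in control discs and 58.0 and 57.1 in Yki discs, a log2 difference of 1.76 (SE 0.27, adjusted p 0.143). The paired Yki arrays of each gene agreed closely, while the control arrays of each gene did not.

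In the same run, TwdlM and TwdlD were dimmer on both Yki arrays than on both controls. TwdlM had 30.8 and 22.7 in control discs and 2.71 and 12.9 in Yki discs, and TwdlD had 15.4 and 34.6 against 4.77 and 6.81. TwdlD is the gene whose dominant mutations change body shape. Both had a log2 difference of -0.87 and a limma adjusted p of 0.346 and 0.349. The run held 12 Tweedle genes, 11 of them dim, with 6 fitted differences above 0 and 6 below.

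Twdlbeta and TwdlV each had Yki arrays far apart. For Twdlbeta the control arrays were also far apart (2.77-fold, and 3.06-fold for its Yki arrays). Twdlbeta had 1071 and 386 in control discs and 721 and 2207 in Yki discs, and the groups overlapped (log2 difference 0.95, SE 0.71, limma adjusted p 0.635). TwdlV lies near TwdlG, with 1 protein-coding gene between them. It had 42.0 and 32.3 in control discs and 309.9 and 30.5 in Yki discs, where only Yki replicate 1 was high. Its log2 difference was 1.22 (SE 0.92, adjusted p 0.637). The other 14 Tweedle genes were dim, with intensities between 1.17 and 70.3 on any array. They were TwdlB, TwdlF, TwdlL, TwdlN, TwdlO, TwdlP, TwdlQ, TwdlR, TwdlS, TwdlW, TwdlX, TwdlY, TwdlZ and Twdlalpha, and their log2 differences ran from -0.68 for TwdlN to 0.91 for TwdlQ, with adjusted p of 0.543 or more.

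**Figure D3:**
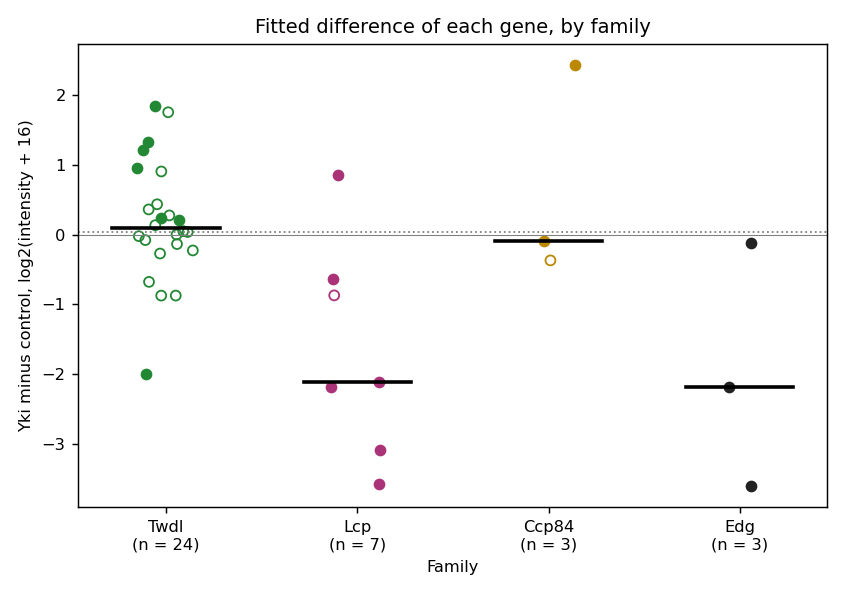
Fitted log2 difference between Yki and control discs for each gene, by family, with open symbols for dim genes and a black line at the family median. The dotted line is the median of all probe sets. Tweedle genes scatter around 0, whereas 6 of 7 Lcp and 3 of 3 Edg genes lie below it.

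Set side by side, the families had different medians. The median log2 difference was 0.09 over the 24 Tweedle genes, of which 15 were above 0. It was -2.11 over the 7 Lcp genes, of which 6 were below 0, and -2.18 over the 3 Edg genes, all below 0. It was -0.10 over the 3 Ccp84 genes, of which 2 were below 0. Of the 24 Tweedle genes 17 were dim, and with only probe sets of mean at least 50 fitted, which leaves 7 Tweedle and 2 Ccp84 genes, the medians were 0.95 and 1.17. Over all 18769 probe sets the median was 0.04. By the unadjusted limma p, 3 Tweedle genes were higher and 3 lower, 3 Lcp and 2 Edg genes were lower and none higher, and 1 Ccp84 gene was higher. These are 12.5% of the Tweedle genes in each direction, 42.9% of the Lcp and 66.7% of the Edg genes lower and 33.3% of the Ccp84 genes higher, where 6.86% of all probe sets were higher and 6.31% lower. The Edg and Ccp84 families have 3 genes each, so single genes set their shares. The differences between families were not tested.

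The medians of the larval named genes (Lcp) and the pupal named genes (Edg) were similar and both below 0, although Lcp65Aa was above 0. Within replicate 1 the medians were -1.70 for the larval and -3.84 for the pupal genes, and within replicate 2 both were -0.52. Without control replicate 1 they became -1.07 and -1.28, without control replicate 2 they were -1.32 and -3.09, and without Yki replicate 1 the pupal median was -1.43. The Ccp84 median rested on single arrays, being 0.50 without control replicate 1 and 0.60 without Yki replicate 1. The Tweedle median was 0.22 without control replicate 2, 0.17 without Yki replicate 1 and 0.03 without Yki replicate 2.

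**Figure D4:**
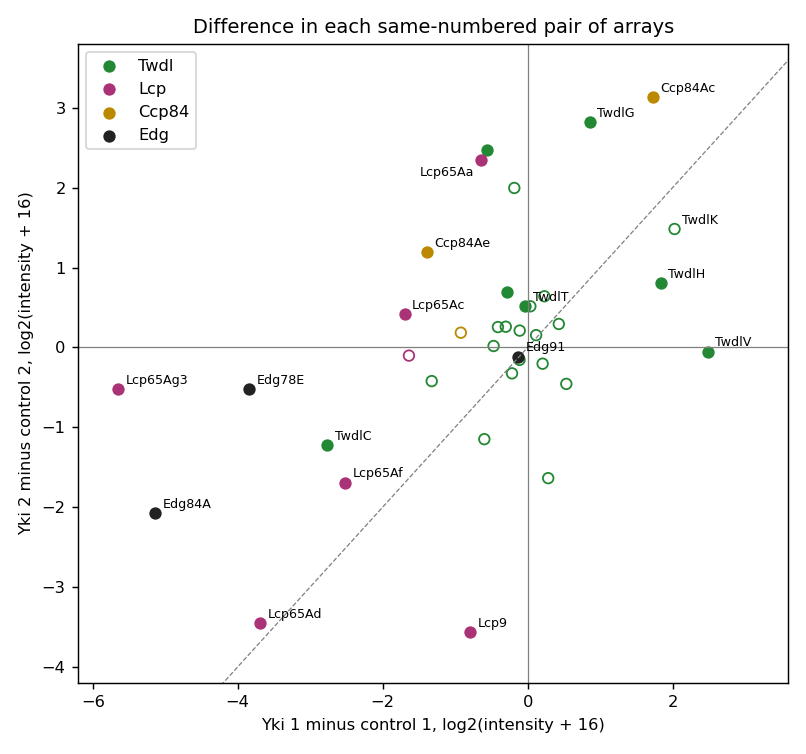
Log2 difference of Yki replicate 1 from control replicate 1 (horizontal) against that of Yki replicate 2 from control replicate 2 (vertical) for the 37 genes, with open symbols for dim genes and a dashed line where both are equal. Lcp65Ad lies near the line at about the same size in both, Edg84A and Lcp65Ag3 are further below 0 in replicate 1, Lcp9 is further below 0 in replicate 2, and Ccp84Ae and Lcp65Aa change sign.

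The pairing in the titles need not mark a shared batch, but it shows how far single pairs agree. The difference had the same sign in both same-numbered pairs for 21 of the 37 members, 13 below 0 and 8 above. This share of 56.8% was near that of all probe sets, where the sign was the same for 11148 of 18769 (59.4%), 5072 below 0 and 6076 above. Among the members it was the same for 5 of 7 Lcp genes and 3 of 3 Edg genes, all below 0, and for 12 of 24 Tweedle genes, 5 below and 7 above. Of the Ccp84 genes it held for Ccp84Ac.

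Summed intensities were compared between arrays within each family. The Lcp sum was 20910.4 and 10597 in control discs and 1705 and 1518 in Yki discs. The Edg sum was 13858 and 2724 in control discs and 1426 and 1524 in Yki discs. Both sums were higher on each control array than on either Yki array, although for the Edg genes control replicate 2 was nearer to the Yki arrays than to control replicate 1. The Tweedle sum was 43076 and 25570.5 in control discs and 39167 and 42061 in Yki discs, where control replicate 2 was lowest. Each sum is dominated by its brightest probe sets, so the sums are not separate support for a difference between families. Lcp65Ad made up 87.5% and 88.8% of the Lcp sum in control discs and 82.1% and 55.6% in Yki discs.

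**Figure D5:**
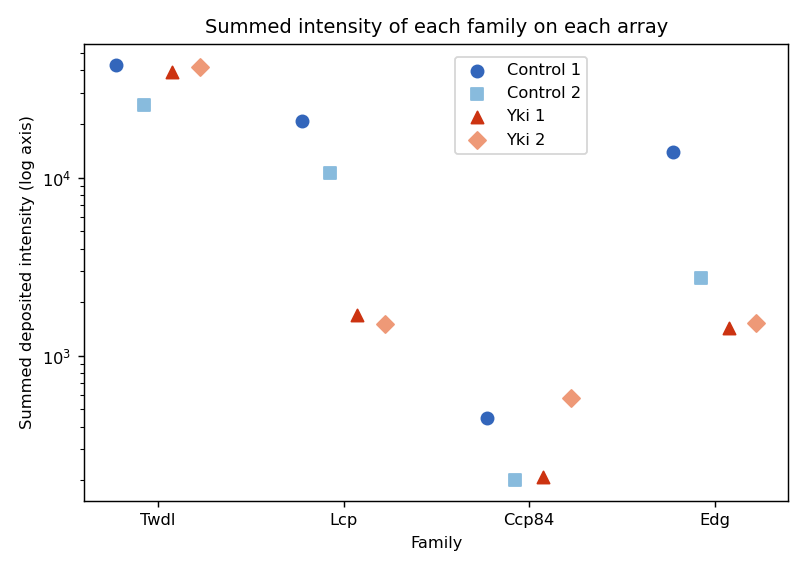
Summed deposited intensity of the member probe sets of each family on each array (log axis), to be read between arrays within a family. For Lcp and Edg both control arrays stand above both Yki arrays, and for Twdl and Ccp84 the groups overlap.

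Other cuticle genes did not all follow the Lcp and Edg genes. Pcp, a pupal cuticle protein gene outside the 4 families, had 374 and 1131 in control discs and 491 and 1317 in Yki discs, and the groups overlapped (log2 difference 0.30, SE 0.69, limma adjusted p 0.908). Its control replicate 2 was the higher one, opposite to the Edg genes. Acp65Aa, an adult cuticle protein gene, had 4451 and 8169 in control discs and 13784 and 15550.1 in Yki discs, so both Yki arrays were above both controls (log2 difference 1.28, SE 0.36, adjusted p 0.278). Tb, the Tweedle gene of the Tubby mutant, was dim, with 32.4 to 47.3 on all arrays. Of 66 Cpr genes, the other Rebers-Riddiford genes, 22 had an unadjusted limma p under 0.05 and were higher with Yki and 9 were lower (33.3% and 13.6%, where 6.86% and 6.31% of all probe sets were), with a median log2 difference of 0.78. Among them Cpr12A had the lowest adjusted p (0.0947), with 1099.6 and 821 in control discs and 57.9 and 105 in Yki discs. The largest log2 differences were -4.39 for Cpr65Ec, 3.64 for Cpr49Aa and 3.54 for Cpr62Bb. Cpr65Ec had 10416 and 2529 in control discs and 168 and 314 in Yki discs, so its control replicate 1 was the higher one, like that of the Edg genes. That order of the control arrays held for 38 of the 66 Cpr genes (57.6%, where 41.5% of all probe sets had it). Cpr49Aa had 119 and 345 in control discs and 1690 and 4450 in Yki discs.

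Of 24 listed genes that make, order or tan the cuticle, 21 were measured, and by the unadjusted limma p 5 were higher with Yki and 2 lower (23.8% and 9.52%, where 6.86% and 6.31% of all probe sets were). The share lower was near that of all probe sets. Those higher were the chitinase genes Cht6 (log2 difference 2.75) and Cht7 (1.36), the dopa decarboxylase gene Ddc (2.11), the pigmentation gene y (1.94) and the chitin-binding protein gene obst-E (1.65). The chitinase genes Cht5 (-0.89) and Cht10 (-0.75) were lower. The chitin synthase gene kkv had 5531 and 3847 in control discs and 6811 and 7885 in Yki discs, a log2 difference of 0.67 that did not reach an unadjusted p of 0.05. None of the 21 passed over all probe sets, where the lowest adjusted p was 0.145.

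Among 17 listed regulators that time cuticle formation, 14 were measured, and 1 was higher and 1 lower by the unadjusted limma p. Each is 7.14% of the list, near the 6.86% and 6.31% of all probe sets. br, a transcription factor gene of pupal commitment, had 3751 and 3194.5 in control discs and 349.9 and 950.2 in Yki discs (log2 difference -2.55, SE 0.50, limma adjusted p 0.177). All Yki values were below all control values. The ecdysone-inducible receptor gene Eip78C had a log2 difference of 1.19 (SE 0.31, adjusted p 0.265). The ecdysone receptor gene EcR had 579.7 and 1023 in control discs and 294 and 535 in Yki discs. Both Yki arrays were below both controls (log2 difference -0.93, SE 0.42, adjusted p 0.439). Of the 14 regulators, 9 had a difference below 0 and 5 above. ftz-f1, which encodes a nuclear receptor known to act on Edg84A, had 443 and 427 in control discs and 157 and 953.5 in Yki discs, so the Yki arrays lay on either side of the controls.

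The overexpressed gene and the tissue markers frame these values. yki had 1285 and 1261 in control discs and 26417 and 26183 in Yki discs, the direction its labels give. All 12 eye disc markers were measured, the lowest at 42.0 on any array, and their summed intensity was 16079 and 20592 in control discs and 17336 and 21921 in Yki discs. By the unadjusted limma p, 3 of the 12 were lower with Yki (25.0%), namely sev (log2 difference -1.69), sv (-1.19) and B-H1 (-0.69). Only chp (0.82) was higher (8.33%). Of all probe sets, 6.31% were lower and 6.86% higher by that p, so the share of eye markers higher was near that of all probe sets. Of the salivary gland markers, 6 of 6 were measured and 4 were lower by the unadjusted limma p (66.7%). The 6 summed to 22249 and 20459.9 in control discs and 2134 and 570.1 in Yki discs. The 4 lower were Sgs3, Sgs5, Sgs7 and Sgs8, which made up most of that sum on every array. The groups overlapped for fkh (log2 difference 0.14) and sage (-1.04). Antenna and head capsule markers (7 of 8 measured, 6 lower, 85.7%) summed to 3937 and 5856 against 2691 and 2119.9. Brain and neuroblast markers (5 of 5, 5 lower, 100%) summed to 1368 and 1315 against 372 and 276. Muscle markers (6 of 8, 4 higher, 66.7%) summed to 4009.8 and 7957 against 12423 and 21562. Fat body (4 of 7) and trachea (4 of 5) markers had none lower by that p. Haemocyte markers (6 of 6) had 1 lower (16.7%). None of the fat body, trachea or haemocyte markers was higher by that p. No measured marker was at 0 on any array. The part of these markers in the lower Lcp and Edg intensities was not tested, and in bulk tissue fewer cells of a type and less RNA per cell cannot be told apart.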

How the data were processed

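Total RNA from each sample was labelled and hybridised to an Affymetrix Drosophila Genome 2 array, per the labels' protocols. The values deposited for the 18952 probe sets of the 4 arrays are linear intensities, scaled by the authors so that the mean after trimming 2% at each end is between 500.01 and 500.013. Per the submitters' processing notes Affymetrix Expression Console was used, and the design text also names dChip. How probes were summarised is not given in the sources used here, and no detection calls were used. All columns were used.

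Gene names came from the platform annotation, and all 37 members matched a RefSeq gene table (Release 6 plus ISO1 MT), which changed 0 symbols and gave gene order only. limma 3.58.1 in R 4.3.3 (lmFit and eBayes, group as the only term) was fitted to log2(intensity + 16) over 18769 non-control probe sets, leaving out 183 control probe sets, with Benjamini-Hochberg adjustment over all of them. There were 2 residual degrees of freedom, to which moderation added 3.03. Replicate arrays correlated at 0.975 (control) and 0.973 (Yki) over probe sets, and 22.2% to 28.3% of probe sets lay below 16. Each p-value sets the group difference against the spread between replicate arrays, moderated over all probe sets, and the 4 arrays limit the precision. The script was tested on simulated data.

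The members and lists were chosen with earlier results of these data known. Genes named by rule were members with an unadjusted p under 0.05 or a 2-fold gap in all 4 pairs, every Edg gene and the 2 brightest of each family. The other members were named after their values were seen, as were the shared probe sets, Cht5, Cht7, Cht10, kkv and ftz-f1. Planned searches of promoter and protein sequences were not run, since no sequence table was used here. Alternatives were the pseudocount (1 and 64), a filter on the mean (50 and 100), array medians or quantiles, the replicate block, trended and robust moderation, 1 probe set per gene, the mean over probe sets, and leaving out each array.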

Additional observations from a re-analysis of the deposited data

How the results depend on the processing

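With no array left out, 0 members passed an adjusted p of 0.05 in the main fit, and 1 passed with the replicate block (Lcp65Ad, while 27 of 18769 probe sets passed), 1 with probe sets of mean at least 100 and 10 with array medians subtracted, where the moderated SD was 0.42 for every probe set and 874 of them passed. The main fit did not take the replicate numbers as pairs, because the submitters state no covariate. Over all probe sets, same-numbered arrays had deviations from the group means that correlated at 0.039. Members lower at an unadjusted p under 0.05 numbered 8, and 5 with a pseudocount of 1, 3 with 64 and 5 with the mean filter of 100. Those higher numbered 4, and 1 with that filter and 7 with medians subtracted. Members with a 2-fold gap in the higher direction numbered 2, and 0 with a pseudocount of 64, 1 with the filter of 50 and 0 with that of 100. The mean filters moved the Tweedle median to 0.95 (filter 50) and 0.60 (filter 100) and the Ccp84 median to 1.17 (filter 50). The Lcp median moved to -2.63 with the filter of 100. That filter also leaves out genes that are not dim, among them TwdlH, Lcp65Af and Lcp65Aa, the only Lcp gene above 0. A pseudocount of 64 moved the Lcp median to -1.12. The smaller counts with the mean filters came from members that those filters leave out. With the filter of 100 these were Lcp65Af, TwdlM and TwdlD among the lower and TwdlH, TwdlK and Ccp84Ac among the higher. The cause of the remaining changes was not tested.

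Without each array in turn, 0 members passed the adjusted threshold. Those lower at an unadjusted p under 0.05 numbered 2 to 8, fewest without Yki replicate 1 (2), and those higher 2 to 4, fewest without control replicate 1 (2). With fewer pairs to satisfy, 2-fold gaps numbered 5 to 7 lower and 3 to 5 higher. Family medians ran from 0.03 to 0.22 (Twdl), -2.11 to -1.07 (Lcp), -0.67 to 0.60 (Ccp84) and -3.09 to -1.28 (Edg). Such fits leave 1 array in a group, assumed to vary like the other group. The sign changed in these fits for TwdlT (-0.088 to 0.57), TwdlE (-0.22 to 0.63), Edg91 (-0.67 to 0.42) and Ccp84Ae (-0.79 to 0.60), the last also with quantile normalization (0.047). The other 13 of the 17 members named by rule kept their sign in the settings in which they were fitted. Of the 20 remaining members, 10 changed sign in at least one fit with an array left out. Without control replicate 1 these were Lcp65Ac (0.04), Twdlalpha (-0.45), TwdlP (-0.24), TwdlL (0.09) and TwdlZ (-0.17), and without control replicate 2 TwdlN (0.46). Without Yki replicate 1 or 2 they were TwdlV (down to -0.19), TwdlB (up to 0.33), Lcp65Aa (down to -0.35) and TwdlS (down to -0.06), and again Twdlalpha, TwdlP, TwdlL and TwdlZ. With all arrays, 3 of them (Twdlalpha, TwdlP and TwdlZ) changed sign under another pseudocount or scaling.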
